A study of Mus musculus with 24 samples.

Results

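Antigen presentation by major histocompatibility complex (MHC) class I molecules was followed through 10 genes in 24 mouse liver samples. The genes were the class I heavy chains H2-K1 and H2-D1, their shared light chain B2m, the peptide transporter chains Tap1 and Tap2, the immunoproteasome subunits Psmb8, Psmb9 and Psmb10, the transcriptional activator Nlrc5, and Ubd, which encodes the ubiquitin-like protein FAT10. They were chosen by name, with earlier results of these data known, and all 10 were found among the 14293 genes of the deposited table. The livers were affected by nonalcoholic steatohepatitis (NASH), in which a fatty liver becomes inflamed and scarred, and formed 3 groups of 8: vutiglabridin, semaglutide and vehicle. Vutiglabridin is presented in the series title as a paraoxonase-2 agonist, and semaglutide mimics the gut hormone GLP-1 at its receptor. The labels give the tissue and the treatment but no strain, genotype, disease model, diet, sex, age, dose or duration, and no group without NASH was analysed here. Nothing in them says that samples of a group came from separate animals, so a p-value here reflects sample-to-sample spread that could be technical. A count of livers below is therefore a count of liver samples.

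Class I molecules display peptides cut from proteins inside the cell to CD8 T cells. The peptides are made by the proteasome, carried into the endoplasmic reticulum by the TAP transporter, and loaded there onto a heavy chain paired with B2m. Interferon-gamma, released by T and natural killer (NK) cells, raises the genes of this route, and NLRC5 activates class I promoters together with RFX, CREB/ATF and NF-Y factors. In the immunoproteasome, Psmb8, Psmb9 and Psmb10 take the places of the constitutive catalytic subunits Psmb5, Psmb6 and Psmb7. FAT10 marks proteins for degradation by the proteasome, is induced by interferon-gamma and tumour necrosis factor, and is known to be high in inflamed and injured liver.

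Of the 10 genes, 7 lie on chromosome 17 in or beside the MHC (GENCODE M21 annotation, GRCm38, whole-gene spans). H2-K1 spans 33996017 to 34000347 on the minus strand. Psmb9 (34181987 to 34187764, minus strand), Tap1 (34187553 to 34197225), Psmb8 (34197721 to 34201454) and Tap2 (34203527 to 34216321) follow each other closely, the last 3 of them on the plus strand. H2-D1 (35262730 to 35267499) and Ubd (37193892 to 37196095) lie further along, also on the plus strand. B2m is on chromosome 2 (122147686 to 122153083, plus strand), and Nlrc5 (94434356 to 94527272, plus strand) and Psmb10 (105935735 to 105938444, minus strand) are on chromosome 8.

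Promoter stretches of H2-K1, H2-D1, B2m, Tap1 and Ubd are shown because these genes share interferon-gamma as an inducer, while their differences from vehicle were of very different size. They were taken from RefSeq on GRCm38.p6, where 8 of the 10 genes matched a window of 250 bases before to 50 bases after the start. Capitals mark matches to 4 motifs on either strand: GGG, 2 bases of any kind, TT, 1 base of any kind and CC (NF-kappaB), GAANNGAAA (interferon-stimulated response element), TGACG (the X2 box bound by CREB/ATF) and CCAAT (the Y box bound by NF-Y). The stretches are chr17:34000351-34000470 (minus strand) for H2-K1, chr17:35262911-35263053 (plus) for H2-D1, chr2:122147549-122147646 (plus) for B2m, chr17:34187322-34187482 (plus) for Tap1 and chr17:37193792-37193891 (plus) for Ubd. The H2-D1 stretch lies inside the GENCODE span given above, because RefSeq places the start of that gene further along. The stretches are parts of the windows and end before the start, and for Ubd only the last 100 bases are shown. Outside them, CCAAT also stood 8 bases after the H2-K1 start and the complement of TGACG 44 bases after the B2m start. The complement of CCAAT stood 222 and 134 bases before the Ubd start.
H2-K1: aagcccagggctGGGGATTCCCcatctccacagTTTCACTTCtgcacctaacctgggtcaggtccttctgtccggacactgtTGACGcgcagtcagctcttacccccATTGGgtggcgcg
H2-D1: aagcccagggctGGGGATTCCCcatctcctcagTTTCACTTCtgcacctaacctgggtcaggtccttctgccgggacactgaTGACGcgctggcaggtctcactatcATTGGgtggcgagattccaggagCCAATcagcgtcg
B2m: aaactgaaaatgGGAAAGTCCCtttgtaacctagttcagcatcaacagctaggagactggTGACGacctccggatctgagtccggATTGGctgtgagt
Tap1: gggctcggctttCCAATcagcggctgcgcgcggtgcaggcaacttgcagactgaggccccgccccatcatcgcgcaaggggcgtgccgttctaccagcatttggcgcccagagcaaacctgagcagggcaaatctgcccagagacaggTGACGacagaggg
Ubd: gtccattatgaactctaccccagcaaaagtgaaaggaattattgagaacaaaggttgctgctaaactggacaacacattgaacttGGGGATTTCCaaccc
H2-K1 and H2-D1 had the same base at 108 of 120 positions when their stretches were set side by side with no gap. In H2-K1, H2-D1 and B2m the letters TGACG were followed, 20 bases on, by ATTGG, the complement of CCAAT. That order, with a spacing of 15 to 30 bases, occurred in 189 of the 32851 RefSeq windows (0.575%). The NF-kappaB letters stood in the windows of H2-K1, H2-D1, B2m and Ubd, against 4.79% of all windows, and the interferon-stimulated letters in those of H2-K1 and H2-D1, against 7.52%. TGACG occurred in 20.8% and CCAAT in 37.4% of all windows. Tap1 and Psmb9 start 226 bp apart on opposite strands, and their windows overlap by 275 bp. The letters TTCNNNGAA (the interferon-gamma activated site, in 8.3% of all windows) were found in the window of Psmb8 and in none of the other 7. A match describes these letters and is not a binding site shown by these data.

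The values are FPKM, fragment numbers divided by gene length and by library size, so levels of different genes can be set side by side per length. Steps between low values implied 5.91 to 15.3 M (mega) fragments per vutiglabridin library, 9.33 to 12.4 M per semaglutide library and 11.97 to 19.8 M per vehicle library. Vutiglabridin replicate 7 had the fewest. Of the members, Ubd had the thinnest coverage, an implied 36.8 to 636 fragments per library, and H2-K1 and B2m had at least 8391 in each. The liver label held for its markers, since all 11 hepatocyte marker genes in the table were tested and albumin (Alb) had the highest level of them. All semaglutide values carry a trailing space that no other column has, so a separate processing of that group cannot be told apart from the drug. Across genes, the semaglutide differences from vehicle were also related to GC content (Spearman rho -0.30) and exon length (0.27), against -0.07 and -0.02 for the vutiglabridin differences.

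B2m was the highest of the 10 genes in all 3 groups, with means of 1772 ± 155, 1795 ± 129 and 2046 ± 213 FPKM (SD, n = 8 each) under vutiglabridin, semaglutide and vehicle. H2-K1 and H2-D1 came next, at 264 to 547 FPKM on average, and the other genes averaged 29.3 FPKM or less. Nlrc5 was lowest, at 3.72 ± 0.465, 3.83 ± 0.560 and 4.20 ± 0.430 FPKM in the same order of groups. Ubd was the gene that changed place: it ranked 7 of the 10 under vutiglabridin and under semaglutide, and 4 under vehicle, where it stood above Psmb10. The neighbours Tap2 and Psmb8 did not differ from each other beyond their spread in any group, and under vutiglabridin the range of Ubd included the means of Nlrc5, Psmb9, Tap1, Tap2 and Psmb8.

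**Figure D1:**
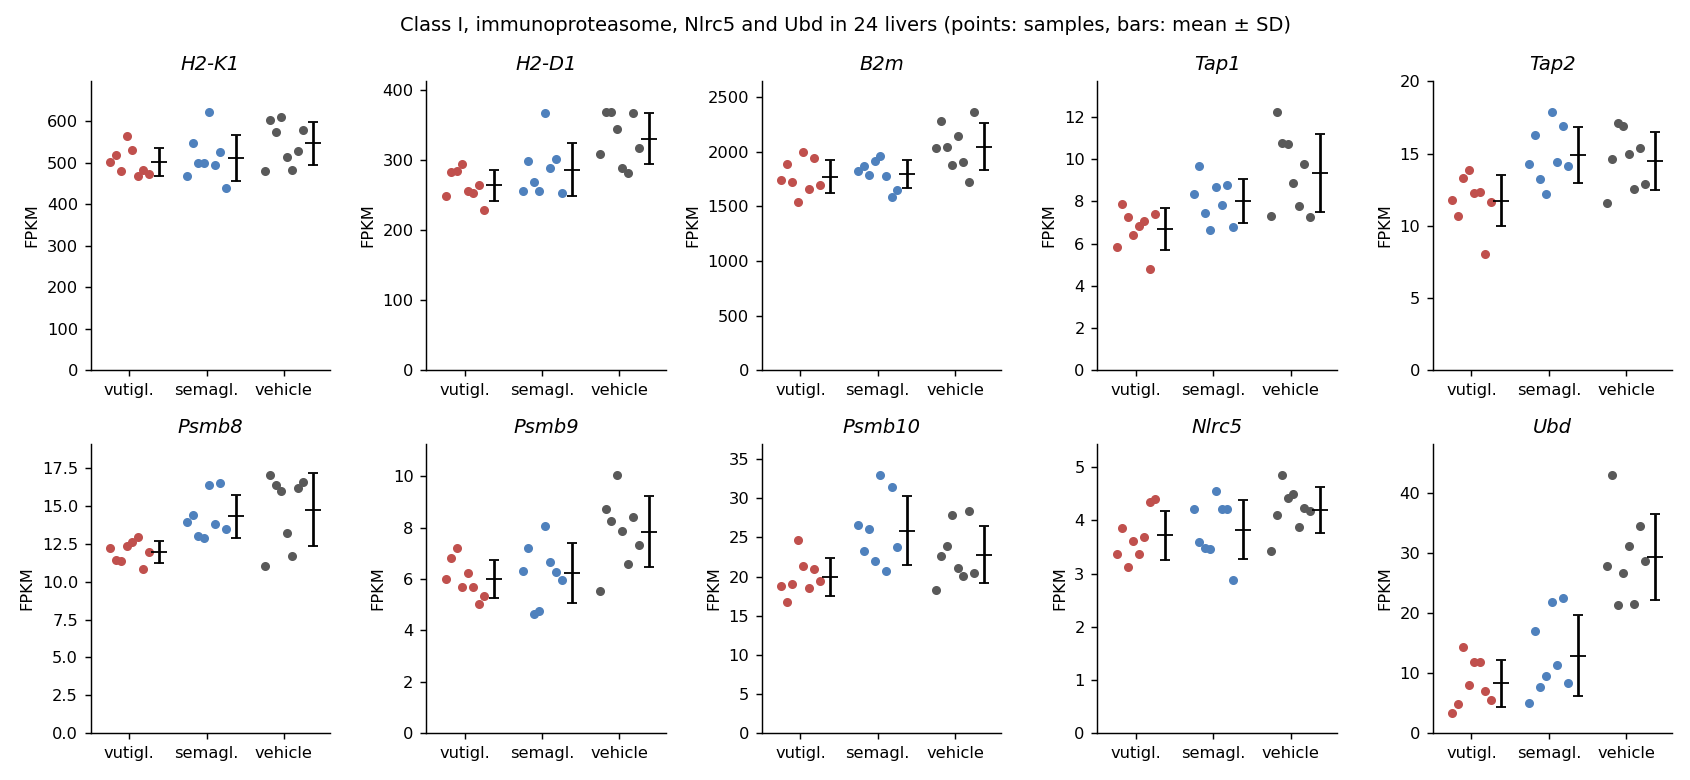
FPKM of each of the 10 genes in every library (linear axes that start at 0), in the order vutiglabridin, semaglutide, vehicle, with points for samples and black bars for the mean ± SD of 8. The vutiglabridin values of Ubd, 3.30 to 14.2 FPKM, all lie under the lowest vehicle value of 21.3 FPKM, while the vutiglabridin and vehicle groups overlap for the other 9 genes.

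In vutiglabridin livers, 6 of the 10 genes fell relative to vehicle (Ubd, Tap1, Psmb9, H2-D1, Tap2 and Psmb8) and none rose, with all 10 fitted differences below 0. Ubd, the gene that changed most, fell by 71.7% in mean FPKM, and the other 5 fell by 0.27 to 0.42 on the log2 scale. Differences are on the log2(FPKM + 1) scale, where changes of low genes come out too small, and a gene was called at a limma p, adjusted over all 11562 genes tested, under 0.05. By that rule 15.3% of all genes tested were called in this comparison, 8.78% lower and 6.53% higher. The median difference was -0.28 over the 10 genes and 0.01 over all genes tested, of which 46.3% had a difference below 0. In bulk liver RNA, fewer cells of a type and less RNA per cell cannot be told apart.

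Ubd had 3.30 FPKM in the lowest vutiglabridin library, a median of 7.46 and a highest value of 14.2, against 21.3, 28.3 and 43.0 FPKM in vehicle livers. The groups did not overlap, a separation that 1.74% of all genes tested showed in this comparison in either direction, and 0.969% with lower vutiglabridin values. Mean levels were 8.30 ± 3.93 FPKM under vutiglabridin and 29.3 ± 7.11 FPKM under vehicle (SD, n = 8 each), a vehicle mean 3.53 times the vutiglabridin mean. The log2 difference was -1.79 ± 0.27 (SE; limma adjusted p = 0.000105; 95% confidence interval -2.34 to -1.25). It was the lowest of all 11562 differences, and Ubd ranked 43 by p. The members were chosen with earlier results of these data known. These ranks and the share of separated genes are therefore descriptive and not independent evidence. The thinly sequenced vutiglabridin replicate 7 had 7.01 FPKM, inside the range of its group. For Tap1 (4.80 FPKM), Tap2 (8.05), Psmb8 (10.8) and Psmb9 (5.03) that library had the lowest value of its group. Its values of Tap1, Tap2 and Psmb8 were also the lowest of any group. Ubd kept its call without any one library, at adjusted p of at most 0.000392.

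Among the class I chains, H2-D1 fell in vutiglabridin livers, to between 229.5 and 295 FPKM (median 260.2), against 282 to 369 FPKM (median 331) in vehicle livers. All 8 vutiglabridin values lay under the vehicle mean and 5 lay under the lowest vehicle value, with a log2 difference of -0.32 ± 0.08 (adjusted p = 0.00693). The call held in each alternative, with adjusted p of at most 0.0187. B2m had 1537 to 1994 FPKM (median 1729.9) under vutiglabridin and 1724 to 2363 FPKM (median 2037) under vehicle, a difference of -0.21 ± 0.07 (adjusted p = 0.0576). H2-K1 had 469 to 564 FPKM (median 493) under vutiglabridin and 481 to 610.0 FPKM (median 551) under vehicle, a difference of -0.12 ± 0.07 (adjusted p = 0.276; 95% interval -0.26 to 0.03). These last differences did not pass the test. B2m passed it when vehicle replicate 4 (0.0494) or 7 (0.0327), or vutiglabridin replicate 5 (0.0380) or 7 (0.0487), was left out. Both genes passed after rescaling to TPM (FPKM rescaled so that every library has the same total), B2m at -0.36 (0.00064) and H2-K1 at -0.28 (0.00159), and after quantile normalization, at -0.47 (0.00031) and -0.35 (0.000567) in the same order. B2m also passed with the trends with GC content and exon length removed (-0.26, 0.00608). Reads that class I genes share could be divided between H2-K1, H2-D1 and their relatives by the authors' counting, so their values are uncertain as single genes.

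Of the transporter chains, Tap1 fell to between 4.80 and 7.87 FPKM (median 6.95) in vutiglabridin livers, against 7.26 to 12.2 FPKM (median 9.32) in vehicle livers. The groups overlapped only between 7.26 and 7.87 FPKM, and the log2 difference was -0.42 ± 0.10 (adjusted p = 0.00567). Tap2 had 8.05 to 13.9 FPKM (median 12.03) under vutiglabridin and 11.6 to 17.1 FPKM (median 14.8) under vehicle, a difference of -0.29 ± 0.09 (adjusted p = 0.0384). Tap1 kept its call in every alternative, with adjusted p of at most 0.0145. The Tap2 call was lost, at adjusted p of 0.0564 to 0.0863, when any one of vutiglabridin replicates 1, 2, 7 and 8 or vehicle replicates 2, 3, 4, 5 and 7 was left out. It was also lost when only the 2 groups compared were fitted (0.0536) and with replicate number as a block (0.0609).

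The immunoproteasome subunits Psmb8 and Psmb9 fell in vutiglabridin livers. Psmb8, the counterpart of Psmb5, had 10.8 to 12.9 FPKM (median 12.1) under vutiglabridin and 11.1 to 17.1 FPKM (median 16.1) under vehicle, a log2 difference of -0.27 ± 0.08 (adjusted p = 0.0215). The vutiglabridin values were closely grouped and the lowest of all belonged to that group (the thinly sequenced replicate 7), but vehicle values reached down among them. Psmb9, the counterpart of Psmb6, had 5.03 to 7.19 FPKM (median 5.84) under vutiglabridin and 5.54 to 10.1 FPKM (median 8.05) under vehicle, a difference of -0.33 ± 0.10 (adjusted p = 0.0264). Psmb10, the counterpart of Psmb7, had 16.8 to 24.6 FPKM (median 19.3) under vutiglabridin and 18.2 to 28.4 FPKM (median 21.9) under vehicle, a difference of -0.18 ± 0.10 that did not pass (adjusted p = 0.232). Without vehicle replicate 2 the calls of Psmb8 (adjusted p = 0.05001), Psmb9 (0.0531) and Tap2 (0.0601) were lost, leaving 3 of the 10 genes called. The Psmb9 call was also lost without vehicle replicate 4 (0.0556) or 7 (0.0536) or vutiglabridin replicate 7 (0.0564) or 8 (0.0534).

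Nlrc5, the activator of class I promoters, had 3.12 to 4.40 FPKM (median 3.65) in vutiglabridin livers and 3.42 to 4.86 FPKM (median 4.21) in vehicle livers. The ranges overlapped widely, and the log2 difference was -0.14 ± 0.07 (adjusted p = 0.204; 95% interval -0.29 to 0.01). In 6 of the 8 vutiglabridin livers Nlrc5 was under the vehicle mean.

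**Figure D2:**
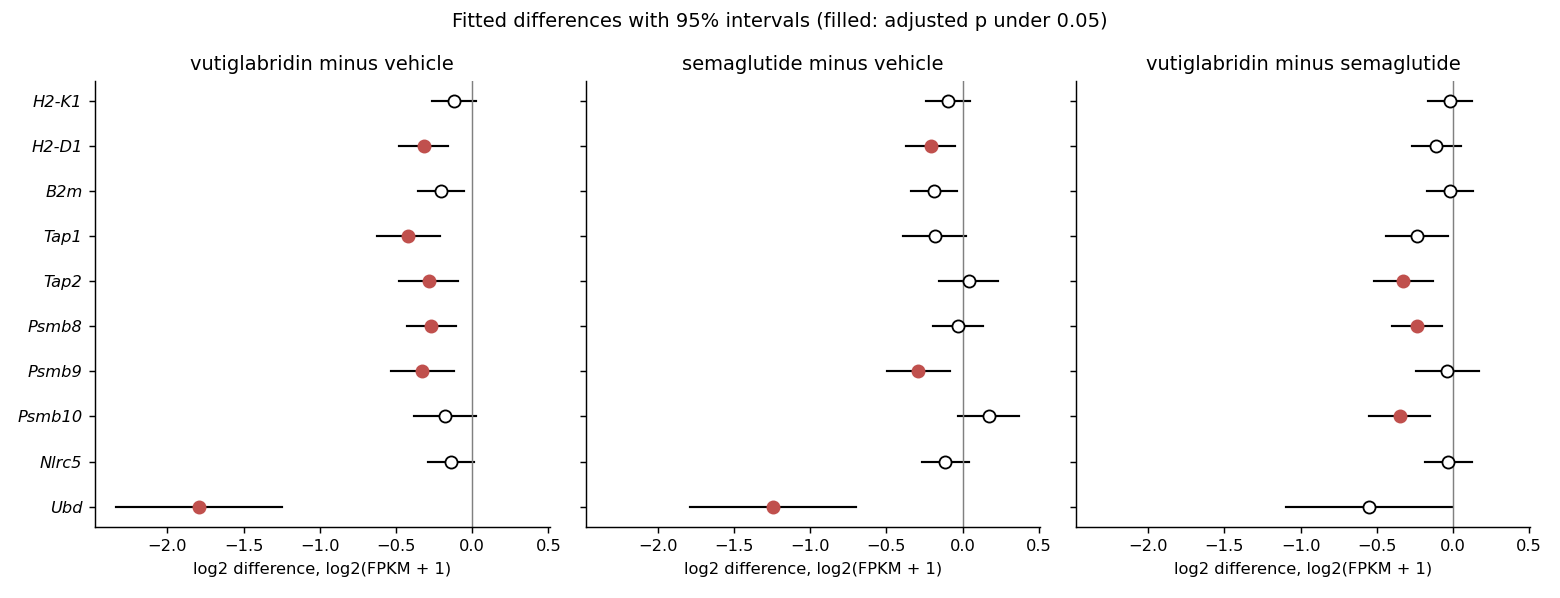
Log2 differences (log2(FPKM + 1) scale) of the 10 genes in the 3 comparisons, with points for fitted differences and bars for 95% confidence intervals, filled where the adjusted p was under 0.05. Ubd stands apart at -1.79 (vutiglabridin minus vehicle) and -1.24 (semaglutide minus vehicle), while no other gene differed by more than 0.42 in either direction.

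In semaglutide livers, 3 of the 10 genes fell relative to vehicle, Ubd, Psmb9 and H2-D1, and none rose. In this comparison 27.02% of all genes tested were called, 12.7% lower and 14.3% higher. The median difference was -0.15 over the 10 genes and -0.01 over all genes tested, and 8 of the 10 differences were below 0, against 53.1% of all genes. The vehicle libraries are the same as in the vutiglabridin comparison, so the results against vehicle are not independent of each other.

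Ubd had 5.04 to 22.5 FPKM (median 10.4) under semaglutide, against 21.3 to 43.0 FPKM (median 28.3) under vehicle. In 6 of the 8 semaglutide livers it was under the lowest vehicle value, and replicates 5 and 7, at 21.8 and 22.5 FPKM, were just above it. In this comparison the groups of 5.83% of all genes did not overlap, 1.74% with lower semaglutide values. The mean was 12.9 ± 6.69 FPKM under semaglutide and 29.3 ± 7.11 FPKM under vehicle (SD, n = 8 each), a vehicle mean 2.28 times the semaglutide mean. The log2 difference was -1.24 ± 0.27 (adjusted p = 0.00111; 95% interval -1.79 to -0.70), and the call held in each alternative at adjusted p of at most 0.00328.

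H2-D1 had 253 to 367 FPKM (median 279) under semaglutide and 282 to 369 FPKM (median 331) under vehicle, a log2 difference of -0.21 ± 0.08 (adjusted p = 0.0495). Psmb9 had 4.65 to 8.07 FPKM (median 6.30) under semaglutide and 5.54 to 10.1 FPKM (median 8.05) under vehicle, a difference of -0.29 ± 0.10 (adjusted p = 0.0318). Both calls lay close to the threshold and the groups overlapped. H2-D1 lost its call, at adjusted p of 0.0533 to 0.0999, without any one of semaglutide replicates 1, 2, 3, 4, 6 and 8 or vehicle replicates 2, 3, 4, 7 and 8. It was also lost with no filter on low values (0.0562) and with only the 2 groups compared (0.0686). Psmb9 lost its call, at 0.0511 to 0.0756, without semaglutide replicate 3, 4 or 8 or vehicle replicate 2, 3, 4 or 7. Only Ubd of the 10 genes was therefore called without semaglutide replicate 3, 4 or 8 or vehicle replicate 2, 3 or 4. With the trends with GC content and exon length removed, the adjusted p was 0.149 for H2-D1 and 0.0822 for Psmb9.

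The other 7 genes did not pass the test under semaglutide. B2m had 1582 to 1959 FPKM under semaglutide and 1724 to 2363 FPKM under vehicle, a log2 difference of -0.19 (adjusted p = 0.0607), which passed without semaglutide replicate 5 (0.0425) or vehicle replicate 7 (0.0289). It also passed under TPM (-0.24, 0.0111) and with the GC and length trends removed (-0.22, 0.011). H2-K1 differed by -0.10 (adjusted p = 0.326), Tap1 by -0.18 (0.180) and Nlrc5 by -0.11 (0.272). Tap2 differed by 0.04 (0.801) and Psmb8 by -0.03 (0.808), both near 0. Psmb10 was the other gene with a value above 0, besides Tap2, at 20.7 to 33.0 FPKM under semaglutide and 18.2 to 28.4 FPKM under vehicle. Its difference of 0.17 (adjusted p = 0.203; 95% interval -0.03 to 0.37) passed as a rise only with the GC and length trends removed (0.28, adjusted p = 0.0058).

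Set directly against semaglutide, vutiglabridin livers had lower Tap2, Psmb10 and Psmb8, and none of the 10 genes was higher. In this comparison 24.4% of all genes tested were called, 12.6% lower and 11.9% higher, and the median difference was -0.17 over the 10 genes and 0.01 over all genes. All 10 differences were below 0, against 47.9% of all genes tested. The groups overlapped for all 10, while 3.40% of all genes did not overlap, 2.27% with lower vutiglabridin values. Tap2 had 8.05 to 13.9 FPKM (median 12.03) under vutiglabridin and 12.2 to 17.9 FPKM (median 14.4) under semaglutide, a log2 difference of -0.33 ± 0.09 (adjusted p = 0.0126). Psmb10 had 16.8 to 24.6 FPKM (median 19.3) under vutiglabridin and 20.7 to 33.0 FPKM (median 24.9) under semaglutide, a difference of -0.35 ± 0.10 (adjusted p = 0.0101). The groups overlapped in part for both genes, and both calls held in each alternative, at adjusted p of at most 0.0271 and 0.0239. Psmb8 was more sharply separated, since 7 of the 8 vutiglabridin livers lay under the lowest semaglutide value, and differed by -0.24 ± 0.08 (adjusted p = 0.0292). That call was lost without vutiglabridin replicate 7 (0.0535) or semaglutide replicate 5 (0.0537) or 7 (0.0610).

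For Ubd the direct difference between the drugs was -0.55 and did not pass (adjusted p = 0.132; 95% interval -1.09 to -0.00), so the larger fall against vehicle under vutiglabridin was not shown to exceed that under semaglutide. It passed without semaglutide replicate 1 (-0.70, adjusted p = 0.0469). H2-K1 (-0.02), B2m (-0.02), Nlrc5 (-0.03) and Psmb9 (-0.04) did not pass between the drugs, at adjusted p of 0.805 or more, nor did Tap1 (-0.24, adjusted p = 0.0861) and H2-D1 (-0.11, 0.321). Of these, 4 passed as lower under vutiglabridin in another scaling. After quantile normalization B2m (-0.37, 0.00126), H2-K1 (-0.20, 0.0176) and H2-D1 (-0.29, 0.0108) passed. Under TPM H2-D1 (-0.21, 0.0404) and Tap1 (-0.35, 0.0254) did, and so they did with the GC and length trends removed (-0.18, 0.0248, and -0.25, 0.0366).

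The balance of inducible to constitutive catalytic subunits was compared as the ratio of their FPKM within each library. This ratio does not depend on a common factor by which a library is scaled. Trends with GC content and exon length do not cancel in it, and no ratio is given with them removed. In vutiglabridin livers all 3 ratios fell relative to vehicle. The Psmb8/Psmb5 ratio was 0.289 ± 0.0313 (range 0.243 to 0.345) under vutiglabridin and 0.3996 ± 0.0598 (0.297 to 0.502) under vehicle (SD, n = 8 each), a log2 difference of -0.46 (exact permutation test, 2-sided, over all 12870 splits, p = 0.000622, adjusted over 9 tests 0.00186). The Psmb9/Psmb6 ratio was 0.0945 ± 0.0167 under vutiglabridin and 0.139 ± 0.0215 under vehicle, a difference of -0.56 (exact p = 0.00109, adjusted 0.00245). Psmb10/Psmb7 was 0.414 ± 0.0423 under vutiglabridin and 0.563 ± 0.109 under vehicle, a difference of -0.42 (exact p = 0.00264, adjusted 0.00476). Every vutiglabridin ratio lay under the vehicle mean of its pair, although the ranges overlapped.

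Under semaglutide only Psmb9/Psmb6 fell relative to vehicle. It was 0.105 ± 0.0215 (range 0.0817 to 0.147) under semaglutide and 0.139 ± 0.0215 (0.0992 to 0.163) under vehicle, a log2 difference of -0.41 (exact permutation p = 0.00995, adjusted 0.0149). Psmb8/Psmb5 was 0.449 ± 0.0646 under semaglutide, 0.17 above vehicle on the log2 scale (exact p = 0.128, adjusted 0.144), and Psmb10/Psmb7 was 0.652 ± 0.0859, 0.22 above vehicle (exact p = 0.0979, adjusted 0.126). Without vehicle replicate 7 the Psmb10/Psmb7 difference passed (0.28, adjusted p = 0.0464). Between the drugs, the vutiglabridin and semaglutide livers did not overlap in Psmb8/Psmb5 (log2 difference -0.63) or in Psmb10/Psmb7 (-0.65). For each the exact permutation p was 0.0001554, the smallest these splits can give (adjusted 0.000699). Psmb9/Psmb6 differed by -0.15 (exact p = 0.291, adjusted 0.291). How often ratios of other gene pairs separate the groups of the drugs is not given here.

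**Figure D3:**
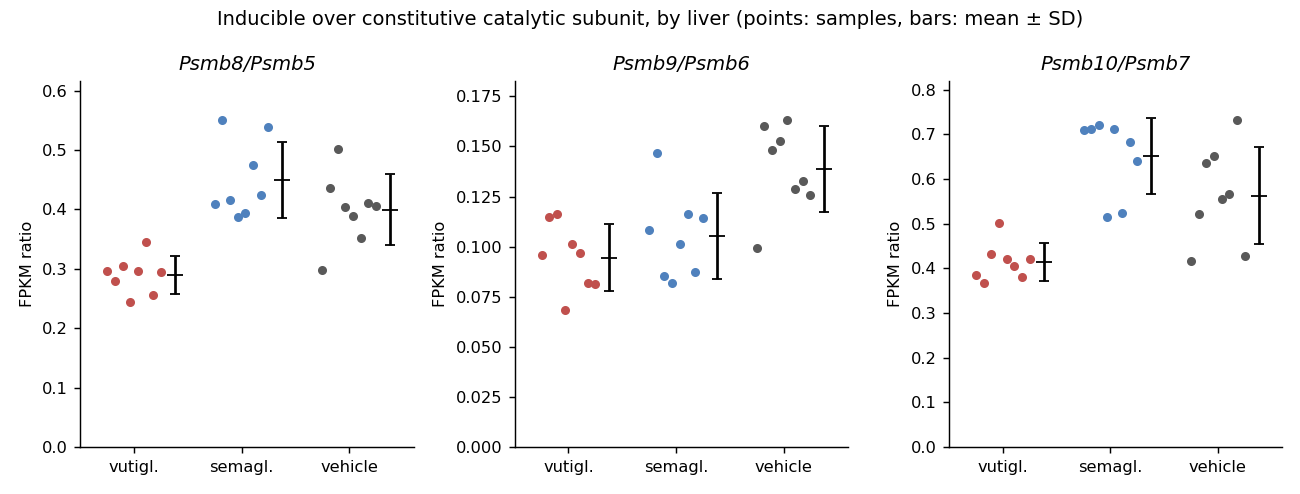
FPKM ratio of each inducible catalytic subunit to its constitutive counterpart in every library, with points for samples and black bars for the mean ± SD of 8, in the order vutiglabridin, semaglutide, vehicle. In Psmb8/Psmb5 the 8 vutiglabridin livers, at 0.243 to 0.345, all lie under the 8 semaglutide livers, at 0.387 to 0.550.

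Of the constitutive counterparts, only Psmb7 also changed relative to vehicle. Psmb5 averaged 41.7 ± 4.22, 32.5 ± 5.83 and 37.0 ± 3.25 FPKM under vutiglabridin, semaglutide and vehicle, and was higher under vutiglabridin than under semaglutide (log2 difference 0.36, adjusted p = 0.00338). Psmb7 averaged 48.2 ± 3.54, 39.8 ± 4.86 and 40.9 ± 4.17 FPKM, and rose under vutiglabridin relative to vehicle (0.23, adjusted p = 0.0271) and relative to semaglutide (0.28, adjusted p = 0.00579). Psmb6 averaged 64.4 ± 7.95, 60.1 ± 10.4 and 56.6 ± 5.83 FPKM and passed in no comparison. Of the 14 genes of the constitutive 20S core, 5 rose and none fell under vutiglabridin relative to vehicle (median 0.17), against 4 higher and none lower relative to semaglutide (0.16). None was called under semaglutide relative to vehicle (0.02). Those 5 rises depend on the scaling, since none passed after rescaling to TPM or after quantile normalization, where the medians were 0.02 and 0.07.

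The genes around the 10 members moved less uniformly. The list counts below on FPKM stand beside the shares of all genes tested. These were 8.78% lower and 6.53% higher for vutiglabridin relative to vehicle. They were 12.7% and 14.3% for semaglutide relative to vehicle, and 12.6% and 11.9% for vutiglabridin relative to semaglutide. Of 15 further class I genes, such as the Qa and M genes, 5 fell and none rose under vutiglabridin relative to vehicle (median difference -0.15). The lowest p values were those of H2-M3, at 3.36 ± 0.864 FPKM under vutiglabridin and 5.75 ± 0.600 FPKM under vehicle (-0.65, adjusted p = 0.000183), and H2-Q4, at 22.6 ± 2.81 and 30.4 ± 3.69 FPKM in the same order (-0.41, adjusted p = 0.000999). Under semaglutide 3 of the 15 fell, H2-M3 (-0.43), H2-Q10 (-0.20) and the iron regulator Hfe (-0.16), and none rose (median -0.04). Between the drugs 5 were lower under vutiglabridin and 1, Hfe (0.28), was higher. These counts moved with the scaling. For vutiglabridin relative to vehicle 9 were lower under TPM, and 8 were lower and 1 higher after quantile normalization. For semaglutide relative to vehicle 3 were lower and 1 higher after quantile normalization, and 1 lower and 2 higher with the GC and length trends removed (median 0.02). As for H2-K1 and H2-D1, reads shared within this family make single genes uncertain.

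Peptide loading genes showed few calls under vutiglabridin, with 1 of 12 higher (the glucosidase subunit Ganab, 0.19) and none lower than in vehicle. That direction depends on the scaling, since 4 were lower and none higher under TPM (median -0.17), and 3 lower and none higher after quantile normalization (-0.10). Under semaglutide 4 of the 12 rose, the trimming peptidases Lnpep (0.59) and Erap1 (0.38), the TAP-binding chaperone tapasin (Tapbp, 0.26) and calnexin (Canx, 0.15), and Hspa5 (-0.35) and Pdia3 (-0.24) fell. Tapbp averaged 28.1 ± 3.04 FPKM under vutiglabridin, 38.2 ± 4.67 FPKM under semaglutide and 31.7 ± 3.15 FPKM under vehicle, and was lower under vutiglabridin than under semaglutide (-0.43, adjusted p = 0.00017). The interferon-inducible proteasome activator chains Psme1 and Psme2 did not pass in any comparison (-0.05 and -0.05 under vutiglabridin, -0.01 and 0.07 under semaglutide, relative to vehicle). Of the 10 activator and assembly genes none was called under vutiglabridin relative to vehicle on FPKM, against 4 lower under TPM (median -0.20), 2 lower after quantile normalization and 1 lower with the GC and length trends removed. Psme4 (0.50) and Psmg2 (-0.22) were called under semaglutide. Between the drugs 3 were called, Psme4 (-0.35) lower and Psmg2 (0.30) and the maturation factor Pomp (0.27) higher under vutiglabridin.

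Of the genes that handle FAT10, none of Uba6 and Ube2z, which activate and attach it, and Nub1, which brings it to the proteasome, passed under vutiglabridin relative to vehicle (-0.05, -0.04 and 0.12). In that comparison 1 of 9 FAT10 pathway genes rose, the ubiquitin receptor Psmd4 (0.21), and none fell, while under TPM none was higher and 1 was lower, and after quantile normalization none was called. Relative to vehicle 1 rose under semaglutide, Uba6 (0.21), and between the drugs 1 was lower under vutiglabridin (Uba6, -0.26) and 3 were higher. Both counts moved with the scaling. For semaglutide relative to vehicle, 1 was lower and none higher under TPM, and 1 was higher after quantile normalization. None was called with the GC and length trends removed. Between the drugs 1 was lower and none higher under TPM, none was called after quantile normalization, and 2 were higher and none lower with the trends removed.

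Of the genes that control the class I route, 23 were tested, and 6 fell and none rose under vutiglabridin relative to vehicle. Of these, the interferon-gamma receptor chains Ifngr1 (-0.28, adjusted p = 0.0214) and Ifngr2 (-0.35, 0.00295) fell, as did Irf8 (-0.34), Tnf (-0.33) and Ciita (-0.48), the activator of class II genes. Tnf had a median of 0.205 FPKM under vutiglabridin, 0.62 under semaglutide and 0.585 under vehicle. It thus reached the 0.5 FPKM required for testing mainly through the other groups, which favours a fall under vutiglabridin. The same limit applies to Ciita, with medians of 0.495, 0.79 and 0.985 FPKM in the same order of groups. Irf1, which had 10.7 to 20.5 FPKM under vutiglabridin and 9.61 to 14.6 FPKM under vehicle, did not pass (0.04, adjusted p = 0.824). The 3 RFX subunits Rfx5, Rfxank and Rfxap differed from vehicle by 0.02 to 0.05 and did not pass. Under TPM 10 of the 23 were lower (median -0.16), and after quantile normalization 4. Ifng itself was not analysed here.

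Under semaglutide 2 of these 23 genes were lower than in vehicle, Irf8 (-0.30) among them, and 5 were higher (Jak2, Jak1, Nfyb, Creb1 and Atf1, by 0.20 to 0.36). Of all genes tested, 12.7% were called lower and 14.3% higher in this comparison. The kinases Jak1 and Jak2, which act below the interferon-gamma receptor, were lower under vutiglabridin than under semaglutide (-0.29, adjusted p = 0.000462, and -0.45, adjusted p = 2.15e-05). Between the drugs 5 of the 23 were lower and 2, Stat2 and Rfxank, were higher under vutiglabridin, against 12.6% lower and 11.9% higher of all genes tested. The medians of the list, -0.02, -0.07 and -0.09 in the comparisons of vutiglabridin with vehicle, semaglutide with vehicle and vutiglabridin with semaglutide, were near 0.

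Markers of other cell types moved beside these genes, and their part in the results was not tested. Of the 12 markers of recruited macrophages, 10 were tested, and all 10 fell under vutiglabridin (median -0.67) and 6 fell under semaglutide (median -0.42), relative to vehicle. The summed level of the 12 was 189 to 412 FPKM per vutiglabridin library, 268 to 506 FPKM per semaglutide library and 400.0 to 732 FPKM per vehicle library, and 1 of the 12 was at 0 in some library. Most of that sum came from Spp1, which also stands in the bile duct list, and Lyz2. Spp1 averaged 130, 196 and 238 FPKM and Lyz2 124, 148 and 199 FPKM under vutiglabridin, semaglutide and vehicle. Of 17 T and NK cell markers in the table, 7 were tested, and Ccl5 (-0.82), Nkg7 (-0.63) and Cd8a (-0.43) fell under vutiglabridin (median of the 7, -0.27), against none called under semaglutide. After quantile normalization 1 was called lower under vutiglabridin (median -0.15). The summed level of the 17 was 4.84 to 14.4 FPKM under vutiglabridin, 10.04 to 24.3 FPKM under semaglutide and 8.35 to 20.5 FPKM under vehicle. Cd8a, which marks the cells that read class I molecules, averaged 0.247 ± 0.160 FPKM under vutiglabridin, 0.654 ± 0.370 FPKM under semaglutide and 0.681 ± 0.249 FPKM under vehicle, and was lower under vutiglabridin than under semaglutide (-0.39, adjusted p = 0.0150). All its vutiglabridin values (0 to 0.43 FPKM) lay under the 0.5 FPKM required for testing. Cd8a was therefore tested only through the other groups, a selection that favours a fall under vutiglabridin. The same held for Cd3g (0.1 to 0.37 FPKM under vutiglabridin) and Cd8b1 (0 to 0.49 FPKM). The median of the 7 tested markers is therefore also biased towards a fall. None of the 17 was at 0 in all libraries, and 11 were at 0 in at least 1. Of 11 hepatocyte markers, 7 were higher and none lower under each drug relative to vehicle (medians 0.33 under vutiglabridin and 0.30 under semaglutide). Under TPM 3 were higher under vutiglabridin (median 0.17) and 5 under semaglutide (0.25), and after quantile normalization 2 (0.16) and 4 (0.17) in the same order.

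**Figure D4:**
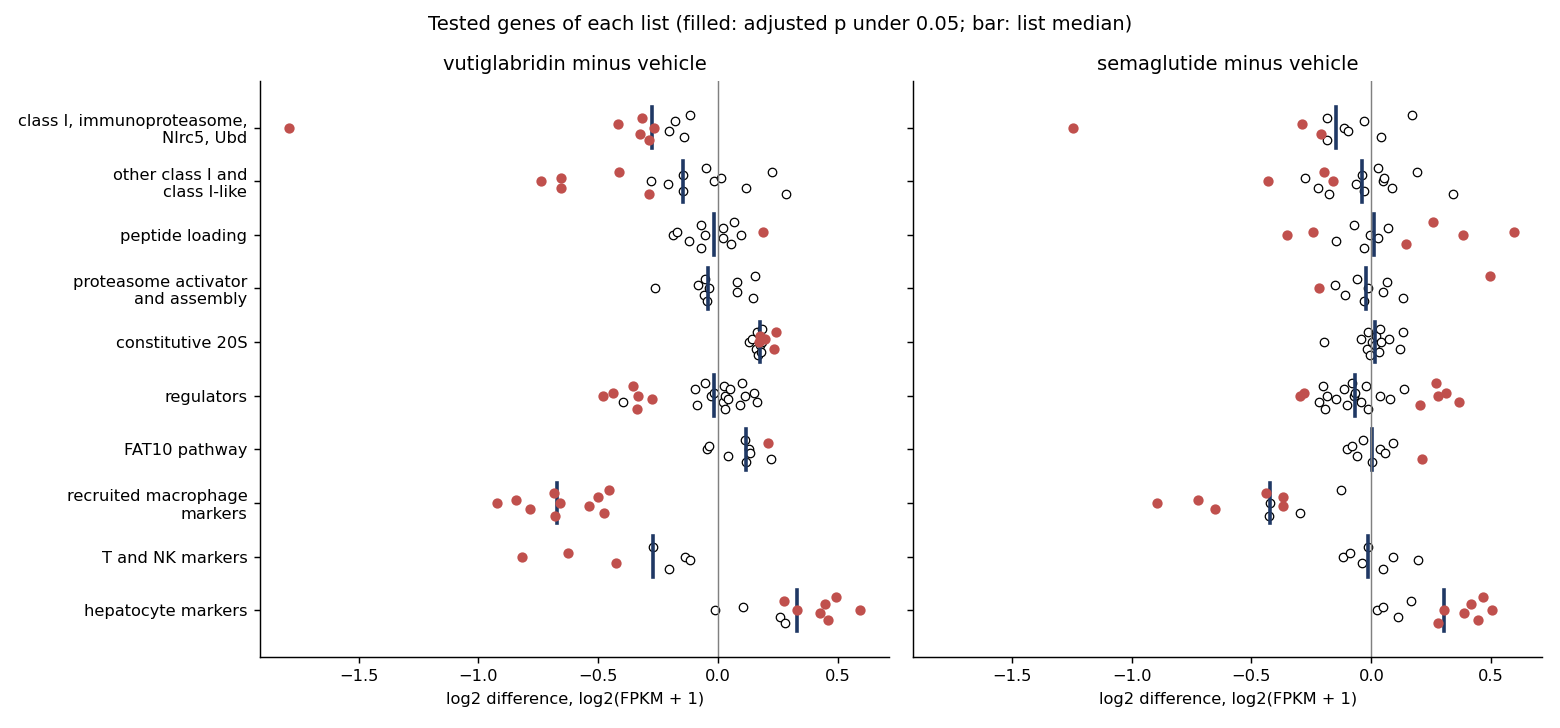
Log2 differences (log2(FPKM + 1) scale) from vehicle under vutiglabridin (left) and semaglutide (right) for the tested genes of each list, with points for genes, filled where the adjusted p was under 0.05, and bars for list medians. The median of the 10 members is -0.28 under vutiglabridin, between that of the constitutive 20S core at 0.17 and that of the recruited macrophage markers at -0.67.

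How the 10 genes varied together within groups was described over the 24 livers. There, after group means were subtracted, Pearson's r was highest for H2-K1 with H2-D1 (0.77), Tap2 with Psmb9 (0.74), Tap1 with Psmb9 (0.72) and Tap1 with Tap2 (0.72). The 36 pairs without Ubd had a median r of 0.51 and a range of -0.35 to 0.77, the lowest being B2m with Tap2. With those other 8 genes B2m had r of at most 0.28 (H2-K1), and Nlrc5 had r of 0.12 (B2m) to 0.43 (Psmb8). The 9 pairs with Ubd had a median of 0.38, and the highest was Ubd with H2-D1 (0.54). These values describe 24 libraries that share scaling and differ in depth, and they carry no test.

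By the same measure, the genes most like Ubd among 10179 with a mean of at least 1 FPKM were Endod1 (0.82), Cxcl16 (0.81), S100a11 (0.81), Gemin7 (0.79) and Uap1l1 (0.79). H2-D1 ranked 414 on that list and Nlrc5 ranked 4516 (0.04). For Psmb8 they were S100a13 (0.76), Btbd9 (0.76), Bckdha (0.75), Calhm6 (0.75) and Nop53 (0.73), and H2-K1 ranked 13 (0.70). For Nlrc5 they were Daxx (0.71), Gnptg (0.70), Aasdh (0.69), Cnppd1 (0.69) and Znrd1as (0.68).

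The relation of Nlrc5 to the other 9 members was computed within each group of 8, as 27 relations. Its Pearson r was positive for 1 of the 9 in vutiglabridin livers (median -0.34), for 9 in semaglutide livers (median 0.57) and for 8 in vehicle livers (median 0.59). No relation passed after adjustment over the 27, and 3 had an unadjusted exact permutation p under 0.05. The closest was Nlrc5 with Tap2 in vehicle livers (Pearson r 0.89, exact permutation p = 0.00198, adjusted 0.0536; Spearman rho 0.90, exact p = 0.00456, adjusted 0.101), with r 0.76 without the 2 livers farthest from the median of Nlrc5. In vutiglabridin livers Nlrc5 and Psmb9 had r -0.73 (exact permutation p = 0.0377, adjusted 0.282) and rho -0.72 (exact p = 0.0496, adjusted 0.253), and r was -0.35 without 2 livers. Without the 2 farthest livers, r was positive for 4 of the 9 under vutiglabridin, 7 under semaglutide and 8 under vehicle. Under vutiglabridin these were replicate 7 (Nlrc5 at 4.35 FPKM), the thinly sequenced library, and replicate 8 (4.40 FPKM). Replicate 7 also had the lowest Tap1, Tap2, Psmb8 and Psmb9 of its group. These 2 libraries were left out only together, so the part of either alone in the negative signs was not tested. The difference between groups was not tested.

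How libraries were scaled changed how many of the 10 genes were called. Rescaled to TPM, all 10 fell under vutiglabridin relative to vehicle, B2m by 0.36, H2-K1 by 0.28, Nlrc5 by 0.31 and Psmb10 by 0.34 on the log2 scale. That scaling also moved the median of all genes to -0.13 in this comparison, and relative to it these values are smaller. It called 2731 genes lower and 233 higher, against 1015 lower and 755 higher on FPKM. For semaglutide relative to vehicle it called 2116 lower and 1202 higher (median -0.07), against 1474 and 1650 on FPKM, and between the drugs 2264 lower and 596 higher (-0.08), against 1454 and 1372. FPKM summed to 368614 ± 14580 in vutiglabridin libraries, 343428 ± 14751 in semaglutide libraries and 330352 ± 14299 in vehicle libraries (SD, n = 8 each). No member was called higher than in vehicle, or higher under vutiglabridin than under semaglutide, under FPKM, TPM or quantile normalization. With GC and length trends removed, Psmb10 was higher under semaglutide.

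**Figure D5:**
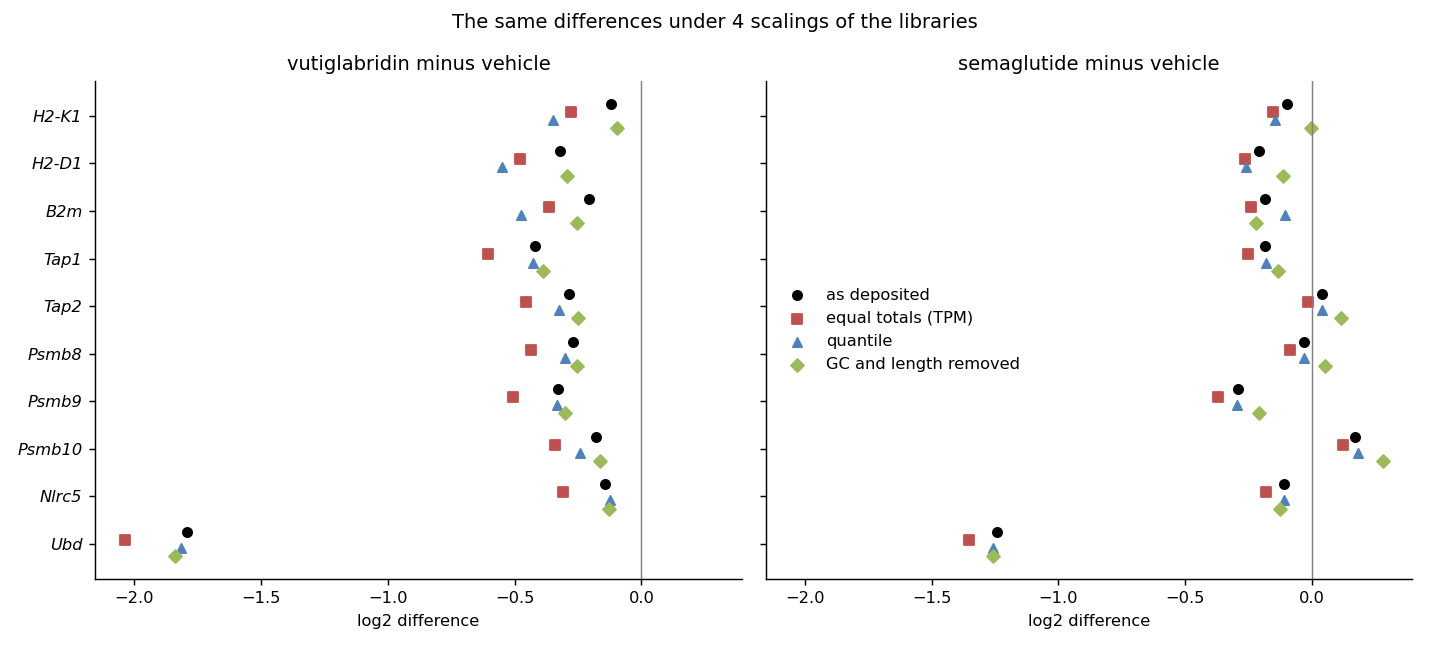
Log2 differences of the 10 genes from vehicle under vutiglabridin (left) and semaglutide (right), with 1 marker each for FPKM as deposited, TPM, quantile normalization and removal of GC and length trends. Ubd lies at -1.79 to -2.04 under vutiglabridin and at -1.24 to -1.35 under semaglutide over these 4 scalings.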

How the data were processed

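Total RNA of 24 mouse liver samples was made into stranded mRNA libraries and sequenced in read pairs, per the labels' protocols. The authors deposited 1 FPKM value per gene and sample. The submitters' processing notes name HISAT2, StringTie and DESeq2. Their versions and the genome build were not given in the sources used here. All 14293 identifiers and symbols match GENCODE M21 (GRCm38).

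FPKM is not a count, so values were taken as log2(FPKM + 1). A gene was tested if it reached 0.5 FPKM in 8 or more samples, which kept 11562 genes and all 10 members. They entered 1 limma model of all 24 samples (limma 3.58.1, R 4.3.3, moderated test with mean trend, 2-sided) with the 3 groups and no covariate. Benjamini-Hochberg adjustment ran over all genes tested within each comparison, with 0.05 as the threshold. Subunit ratios and correlations were tested with exact permutation tests (scipy 1.17.1). Members and gene lists were chosen with earlier results of these data known. The genes named were the members, Psmb5 to Psmb7, fixed interferon, loading, activator and FAT10 genes, up to 4 genes per further list with the lowest p, the 5 genes most like Ubd, Nlrc5 and Psmb8, and, chosen after their values were seen, the other called genes of short lists. The values of 1 gene of the regulator list are not reported here. In simulated data for vutiglabridin and vehicle (11562 genes), the test recovered 84% of 100 genes changed by 0.5 on the log2 scale and 100% of 100 changed by 1, with 13 false calls.

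Alternatives were a pseudocount of 0.1 or 0.5, no filter, a filter on a mean of 1 FPKM, TPM scaling, quantile normalization, only the 2 groups compared, replicate number as a block, removal of GC and exon-length trends (splines with 5 degrees of freedom), and each sample left out. Depth was read from the steps between low values, and it limits the precision of low genes such as Ubd.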

Additional observations from a re-analysis of the deposited data

How the results depend on the processing

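Over 26 alternatives per gene, all 10 genes kept the direction of their difference from vehicle under vutiglabridin. Ubd kept its calls against vehicle under both drugs, H2-D1 and Tap1 kept theirs under vutiglabridin, and Tap2 and Psmb10 kept theirs between the drugs. The number of the 10 genes called, 6 for vutiglabridin minus vehicle, was 10 under TPM, 8 under quantile normalization, 7 with GC and length trends removed and 5 with only the 2 groups compared. Over all genes the same settings called 2964, 1386, 2169 and 1618, against 1770. For vutiglabridin minus semaglutide, 3 genes were called on FPKM, 5 under TPM, 6 under quantile normalization, 5 with GC and length trends removed and 5 when the replicate block was added to that removal. Over all genes the counts were 2826, 2860, 2542, 2880 and 2862 in the same order. Leaving out 1 library at a time gave 3 to 7 calls for vutiglabridin minus vehicle, 1 to 4 for semaglutide minus vehicle and 2 to 4 for vutiglabridin minus semaglutide, and the Psmb10/Psmb7 difference for semaglutide minus vehicle was 0.16 to 0.28. The cause of these shifts was not tested. All-gene counts with 1 library left out are not given here.

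Values that changed sign all lay near 0 and none was called. With 1 library left out, the differences for vutiglabridin minus semaglutide were -0.045 to 0.0090 for B2m (0.0090 without vutiglabridin replicate 4), -0.052 to 0.020 for H2-K1, -0.074 to 0.00041 for Nlrc5 and -0.085 to 0.012 for Psmb9. The upper end of the last 3 came without semaglutide replicate 5. For semaglutide minus vehicle, Tap2 was -0.014 under TPM and -0.0021 to 0.076 with 1 library left out (-0.0021 without vehicle replicate 1), and Psmb8 was 0.051 with GC and length trends removed, also with the block.

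Replicate numbers are shared between groups. They were not taken to pair libraries, because the rule asked that all same-numbered libraries deviate together (correlation over 0.1). This held in 6 of 8 pairs of vutiglabridin and vehicle, 2 of semaglutide and vehicle and 3 of the drugs. The correlations of deviations of same-numbered libraries were -0.12 to 0.28 between vutiglabridin and vehicle, -0.25 to 0.25 between semaglutide and vehicle and -0.20 to 0.29 between the drugs. Without values for differently numbered libraries to compare, this check cannot decide whether libraries were paired. With replicate number as a block, 5 of the 10 genes were called for vutiglabridin minus vehicle (Tap2 at adjusted p = 0.0609), 3 for semaglutide minus vehicle and 3 for vutiglabridin minus semaglutide. Depth limits low values such as those of Ubd most in vutiglabridin replicate 7, at 5.91 M fragments, and a separate processing of the semaglutide libraries cannot be told apart from that drug.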

Other observations

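The remaining cell type marker lists were counted in the same way. Of 9 stellate cell and matrix markers, 4 were lower and none higher under each drug relative to vehicle, including Col3a1 (-1.59 under vutiglabridin and -1.07 under semaglutide) and Col1a1 (-1.63 and -0.82 in the same order). Of 7 bile duct markers, Spp1 (-0.92) and Krt19 (-0.77) were lower under vutiglabridin, and none was called under semaglutide. Spp1 also stands in the recruited macrophage list. Of 7 Kupffer cell markers, C6 (0.44) was higher under vutiglabridin and Cd5l (-0.73) lower under semaglutide. Of 8 endothelial markers, Clec4g (0.29) was higher under vutiglabridin, and Kdr (0.43) and Clec4g (0.23) were higher under semaglutide. Of 5 dendritic cell markers tested, Ccr7 (-0.58) was lower under vutiglabridin, as was Cd79b (-0.63) of 3 B and plasma cell markers, and none of either list was called under semaglutide. Ccr7 had a median of 0.275 FPKM under vutiglabridin, 0.695 under semaglutide and 1.105 under vehicle. It reached the 0.5 FPKM required for testing mainly through the other groups, which favours a fall under vutiglabridin. Of 3 neutrophil markers tested none was called against vehicle, and S100a9 (-0.73) was lower under vutiglabridin than under semaglutide. Under TPM 5 bile duct, 6 stellate and 2 endothelial markers were lower under vutiglabridin than under vehicle, and after quantile normalization no B and plasma cell marker was called.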
